A study of Macaca mulatta with 6 samples.

Results

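The cytosolic ribosomal proteins are the protein parts of the ribosome outside mitochondria, and their transcripts are among the most abundant in any cell. In the data table their genes were found by name: a symbol beginning with RPL or RPS and a digit, or RPLP0, RPLP1, RPLP2 or RPSA, without the S6 kinases. Probe sets naming 1 such gene numbered 99 and covered 61 genes of the 11963 genes that have a probe set of their own. Each gene was read on its brightest probe set. Of the 61, 54 had a mean log2 level of at least 7.30, the median of all probe sets, and were tested among 7164 genes. They comprised 30 large subunit (60S) genes, 20 small subunit (40S) genes and 4 paralogs. The other 7 were too dim and are described last.

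Left adrenal glands came from 6 female rhesus macaques (Macaca mulatta), all ovariectomized, and were taken every 4 h from 3 AM to 11 PM with 1 animal per time, and each was read on 1 Affymetrix array of human sequence. All animals had lived in a cycle of 12 h light and 12 h dark, and all were fasted before necropsy. The 3 AM and 7 AM animals were both aged 12 years. The animal of 11 AM was aged 10 years 37 days, that of 3 PM 8 years 106 days, that of 7 PM 7 years 82 days and that of 11 PM 8 years 70 days. Age therefore falls along most of the clock, and no clock time has a second animal. No source used here gives the hour of lights-on, so "day" below means the 7 AM, 11 AM and 3 PM arrays and "night" the 7 PM, 11 PM and 3 AM arrays. Probes of human sequence can bind a macaque transcript less well, and many ribosomal protein genes have near-identical pseudogenes. Of the 54 probe sets, 15 carry the _x_at suffix and 28 the _s_at suffix, which mark probes shared between similar transcripts. Signal was therefore compared only within a probe set.

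A ribosome is assembled in the nucleolus from ribosomal RNA and about equal amounts of each ribosomal protein, and the small subunit reads the messenger RNA while the large subunit joins the amino acids. Ribosomal protein messages in mammals begin with a run of pyrimidines, the TOP motif, through which TOR signalling adjusts their translation, so their protein output can change without a change in message level. In mouse liver, ribosome production and the translation of these messages are known to follow the day. In the adrenal the cortex makes steroid hormones and the medulla catecholamines.

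The arrays held the tissue on their labels. All 7 listed cortex markers and all 5 medulla markers were tested, with CYP17A1, a steroid hydroxylase, between 28646 and 40394 intensity units. The 1 kidney marker measured, SLC12A1, stayed between 4.3 and 27.8. The hybridisation controls, bacterial and phage transcripts added at fixed amounts, were dimmest at 3 AM, where their geometric mean was 542, and next at 3 PM with 669; elsewhere it was 948 to 1101. The 3'/5' signal ratio of GAPDH, which climbs when RNA is degraded, lay between 0.721 at 7 AM and 1.16 at 3 PM, with 1.15 at 7 PM. The same ratio of ACTB ordered the arrays otherwise, from 0.61 at 3 PM to 0.819 at 3 AM, with 0.802 at 7 AM. The part of RNA quality in the values below was not tested. The authors' scaling gave every array nearly the same trimmed mean, which leaves out the brightest 2% of probe sets. Of the 54 ribosomal protein probe sets, 44 to 46 lay above that cut on each array, so most of them did not enter the scaling.

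The ribosomal protein genes mostly followed 1 pattern across the arrays as deposited: low in the 3 AM animal and high in the 7 AM and 11 AM animals. Of the 54 genes, 12 lay above their own mean at 3 AM, 51 at 7 AM, 42 at 11 AM, 20 at 3 PM, 23 at 7 PM and 24 at 11 PM. The shares of all genes tested were 51.9%, 47.5%, 52.6%, 55.2%, 54.1% and 48.9% in the same order. Their median deviation from the gene mean, on the log2 scale, was -0.19 at 3 AM, 0.20 at 7 AM, 0.13 at 11 AM, -0.06 at 3 PM, -0.05 at 7 PM and -0.03 at 11 PM. The 7 AM array was the highest for 27 of the 54, against 16.8% of all genes tested, and the 3 AM array the lowest for 28, against 17.5%. No ribosomal protein gene was lowest at 7 AM, against 21.6% of all genes, and 1, RPS25, was highest at 3 AM, against 17.1%.

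**Figure D1:**
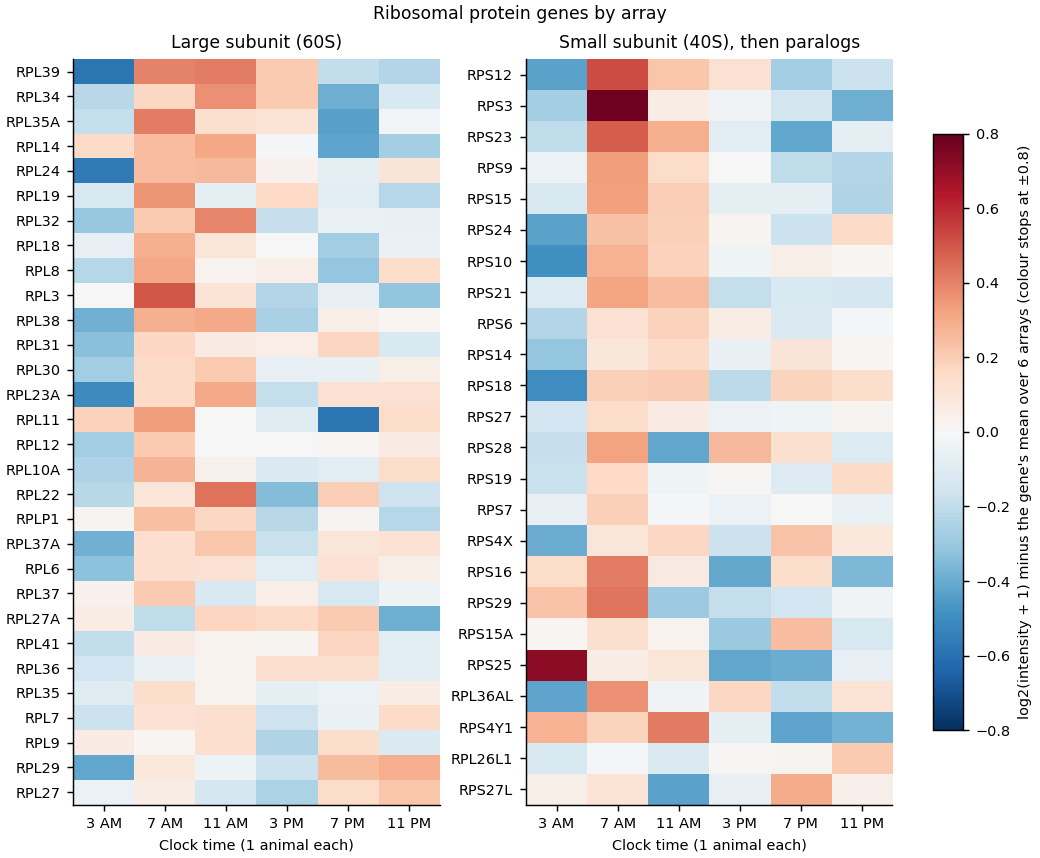
Deviation of each of the 54 tested genes from its own mean over the 6 arrays (log2 scale, colour), with 1 column per clock time and animal; the left panel holds the 30 large subunit genes and the right panel the 20 small subunit genes followed by the 4 paralogs, each ordered by the day-minus-night difference. The 7 AM column is above the mean in 51 of 54 genes and the 3 AM column in 12, against 47.5% and 51.9% of all genes tested.

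Both subunits took part. At 7 AM, 28 of 30 large subunit genes and all 20 small subunit genes lay above their mean, with median deviations of 0.19 and 0.26. At 3 AM the counts were 6 of 30 and 4 of 20, with medians of -0.21 and -0.18. The summed intensity of the 54 probe sets was 405810 at 3 AM, 556419 at 7 AM, 529842 at 11 AM, 448428 at 3 PM, 472894 at 7 PM and 476619 at 11 PM. As a share of all signal on the array this was 4.12% at 3 AM, 5.14% at 7 AM, 4.93% at 11 AM, 4.37% at 3 PM, 4.50% at 7 PM and 4.46% at 11 PM.

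The 7 AM and 3 AM animals had the same labelled age. Of the 54 genes, 50 were higher at 7 AM than at 3 AM, against 46.4% of all genes tested, by a median of 0.41 on the log2 scale, against -0.04 for all genes. At least 1.5-fold higher at 7 AM were 12 of the 54, against 11% of all genes, and 1, RPS25, was at least 1.5-fold lower, against 12.8%. With 1 animal each, this comparison has no replicate check.

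Other bright genes moved with them between these arrays. The 142 tested genes that are no ribosomal protein gene by name and have a mean log2 level of 12 or more had a median 7 AM minus 3 AM difference of 0.35, where the 44 ribosomal protein genes at that level had 0.41. Both groups were below their means at 3 AM and 3 PM, the 2 arrays with the lowest hybridisation controls. Quantile normalization, which gives all arrays the same distribution of values, removed the step: 22 of the 54 genes were then higher at 7 AM than at 3 AM, against 48.2% of all genes, with a median difference of -0.03. The part of the array's brightness range in this step was not tested beyond these values. The 44 ribosomal protein genes and the 142 others lay closest at 3 AM, with median deviations of -0.21 and -0.19, and at 3 PM, with -0.07 and -0.10. The ribosomal protein genes were the higher at 7 AM, with 0.20 against 0.11, and at 11 AM, with 0.13 against 0.04. They were the lower at 7 PM, with -0.05 against 0.06, and at 11 PM, with -0.02 against 0.13. These differences were not tested.

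**Figure D2:**
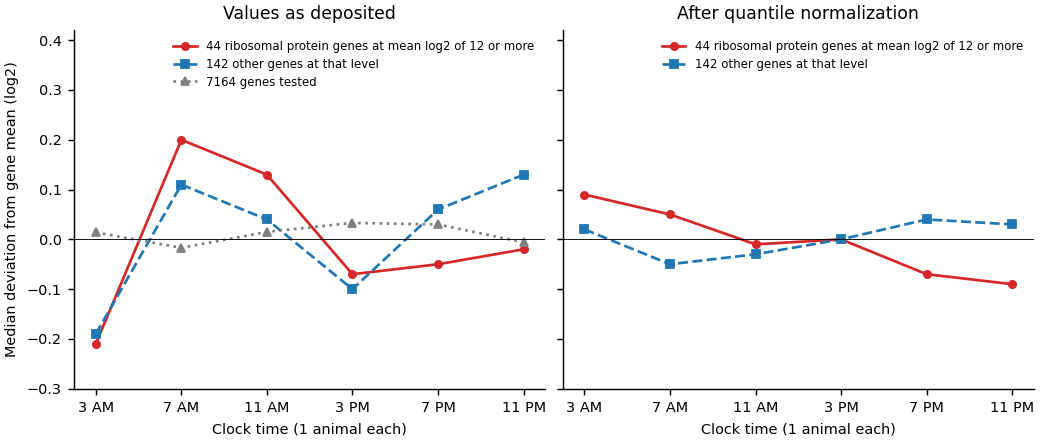
Median deviation from the gene mean (log2) by clock time, 1 animal each, for the 44 ribosomal protein genes with a mean log2 level of 12 or more, for the 142 other genes at that level and, on the left only, for all 7164 genes tested. As deposited both bright groups are low at 3 AM, at -0.21 and -0.19; after quantile normalization they lie at 0.09 and 0.02 there, and at 11 PM at -0.09 and 0.03.

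A 24-h rhythm was not detected in any of them. A cosine with a period of 24 h was fitted to every gene and tested with limma's moderated F test, adjusted over the 7164 genes. After adjustment 0 of the 54 passed, as did 0% of all genes, and the lowest adjusted p was 0.836 by limma. Without adjustment 0 of the 54 had p under 0.05, against 5.56% of all genes. With the ordinary F test 3 did, and the share of all genes by that test is not given here. The median fitted peak-to-trough difference was 0.33 on the log2 scale for the 54 and 0.43 for all genes, where the median standard error for the 54 was 0.29. The fitted peak fell between 4 h and 16 h in 48 of the 54. The share of all genes in that window is not given here, so this count is not read as a shared phase.

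The large subunit genes with the smallest p of this fit were RPL39, RPL14 and RPL11. RPL14 had intensities of 7410 at 3 AM, 7913 at 7 AM, 8243 at 11 AM, 6587 at 3 PM, 4963 at 7 PM and 5528 at 11 PM. It was high in the 3 arrays from 3 AM to 11 AM and low in the evening, and the curve accounted for most of its spread (R2 0.939, exact p = 0.0333 over the 60 circular orders of the arrays, whose smallest p is 0.0167). Its fitted peak was 1.67 times its trough, at 8.24 h (log2 0.74 ± 0.26, SE, limma adjusted p = 0.836). It was the 1 gene of the 54 with an exact p under 0.05. The share of all genes by this exact test is not given here, so RPL14 is not read as standing out. On a further probe set of RPL14 the fitted curve spanned 0.16 on the log2 scale. RPL11, which can bind and block the p53 ubiquitin ligase MDM2 when ribosome assembly fails, had 6661 at 3 AM, 7401 at 7 AM, 5879 at 11 AM, 5487 at 3 PM, 3920 at 7 PM and 6501 at 11 PM. The 7 PM animal alone stood low, and the fitted ratio was 1.62 (limma adjusted p = 0.849).

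Among small subunit genes the smallest p belonged to RPS25, which is needed for some forms of initiation inside a message, and to RPS23, a protein of the decoding centre. RPS25 ran against the other genes: 4522 at 3 AM, 2864 at 7 AM, 2940 at 11 AM, 2063 at 3 PM, 2090 at 7 PM and 2625 at 11 PM. Its 3 AM value was 2.19 times its 3 PM value, and 3 AM was low for most other ribosomal protein genes. The fitted ratio was 1.90, with a peak at 4.52 h (log2 0.92 ± 0.32, SE, limma adjusted p = 0.836). RPS23 had 11497 at 3 AM, 18531 at 7 AM, 16138 at 11 AM, 12460 at 3 PM, 9894 at 7 PM and 12585 at 11 PM. It was high in the 2 morning animals and lowest at 7 PM, with a fitted ratio of 1.67 and a peak at 8.46 h (limma adjusted p = 0.838).

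**Figure D3:**
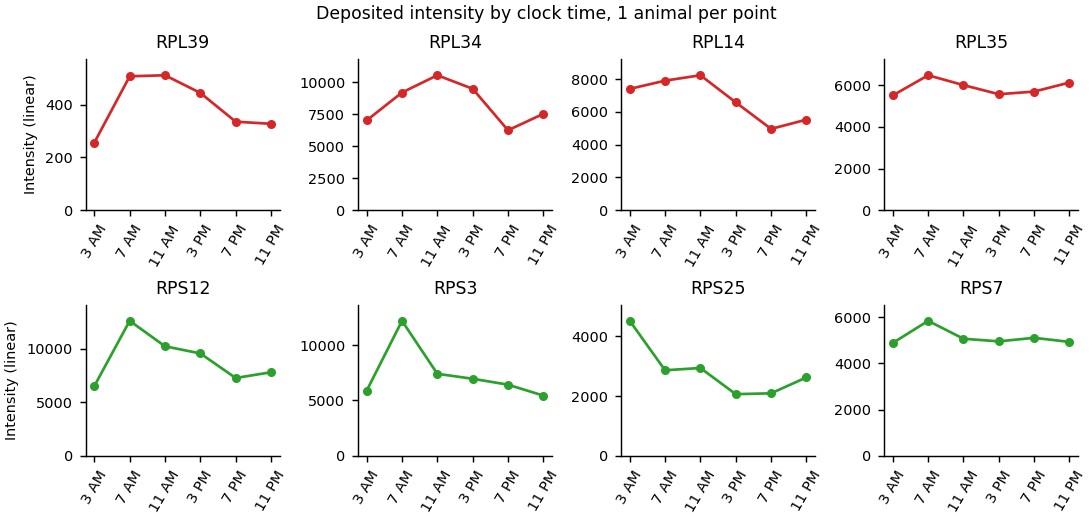
Deposited intensity (linear, from 0) of 4 large subunit genes (top) and 4 small subunit genes (bottom) by clock time, 1 animal per point. RPS3 stands out at 7 AM with 12222, RPS25 at 3 AM with 4522, and RPL35 and RPS7 are nearly level, the highest array being 1.18 and 1.20 times the lowest.

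Between day and night most of the genes lay on the day side, by small amounts. Of the 54, 46 had a higher mean by day, against 49.1% of all genes tested, and the median difference was 0.13 on the log2 scale, against -0.004 for all genes. The median standard error of 1 gene's difference was 0.20. Of the large subunit genes 27 of 30 were higher by day, with a median of 0.15, and of the small subunit genes 17 of 20, with a median of 0.12. No gene passed: 0 of 54 had an adjusted p under 0.05 by limma, as did 0% of all genes, and the lowest was 0.759. Without adjustment, 3 of 54 were higher by day with p under 0.05, against 2.95% of all genes, and 0 of 54 were lower, against 2.44%; in either direction the background was 5.39%. The median difference was 0.26 without the 3 PM array, 0.21 without 7 PM and 0.20 without 11 PM, and the count of 3 was 5 without 3 PM and 2 without 7 AM, 11 AM or 7 PM. The shares of all genes beside these changed counts are not given here.

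RPL39, a small protein at the exit tunnel for the new chain, had the smallest p of this contrast. It measured 507, 511 and 444 at 7 AM, 11 AM and 3 PM, against 335, 327 and 256 at 7 PM, 11 PM and 3 AM. Day and night values did not overlap, and the day mean was 1.60 times the night mean (log2 0.68 ± 0.19, SE, limma adjusted p = 0.759). RPS12, of the 40S head region, had 12640, 10253 and 9584 by day, against 7282, 7819 and 6528 by night. Its values did not overlap either, at a ratio of 1.5 (log2 0.58 ± 0.19, SE, limma adjusted p = 0.766). RPL34 had 9190, 10540 and 9483 by day, against 6238, 7524 and 7010 by night, a ratio of 1.41 (log2 0.49 ± 0.18, SE, limma adjusted p = 0.817). All 3 day animals again lay above all 3 night animals. Its unadjusted p was 0.0862 without the 11 AM array and 0.0795 without 7 PM, and that of RPS12 was 0.0511 without 3 AM and 0.0546 without 7 AM (limma). When the values of all probe sets of a gene were averaged, the log2 difference of RPS12 was 0.22; its second probe set was dim, at a mean intensity of 41.9.

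RPS3 lines the channel where the message enters and also acts in DNA repair outside the ribosome. It had the widest range of all 54: 12222, 7420 and 6971 by day, against 6435, 5444 and 5893 by night. Day and night values did not overlap, the 7 AM animal stood apart from the other 5 and the highest value was 2.25 times the lowest. The log2 difference was 0.54 ± 0.25 (SE, limma adjusted p = 0.894). Without the 7 AM array the difference was 0.28. RPS6, the substrate of the S6 kinases and a readout of TOR activity through its phosphorylation, had 18767, 19630 and 17975 by day, against 15974, 17142 and 14686 by night, a log2 difference of 0.24 ± 0.18 (SE, limma adjusted p = 0.934). The difference was -0.15 with the mean of all its probe sets, of which 1 was dim, at a mean intensity of 28.7 and a difference of -1.20. Its other bright probe sets had 0.26 and 0.09. Arrays of messages carry nothing on the phosphorylation of RPS6.

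In all, 10 of the 54 genes had 3 day values above all 3 night values, against 5.61% of all genes tested, and 0 had the reverse, against 5.26%. Beside those given, they were RPL18, RPL19, RPL35A, RPS9 and RPS15, named here after their values were seen, with log2 differences from 0.26 to 0.43. The count of 10 was 26 without the 3 PM array, against 10.8% of all genes, and 16 without the 11 PM array, against 9.77%. It was 10 without the 7 AM array, against 11.5%, and 12 without 3 AM, against 10.7%. Without 11 AM it was 13, against 9.69%, and without 7 PM 14, against 11%. The reverse count of 0 was 3 without the 3 AM array, against 11.4% of all genes, and 3 without the 7 AM array, against 9.13%. The 6 arrays can be parted 3 against 3 in 10 ways, so a two-sided exact test of 1 gene cannot go below 0.1. Of the 142 other bright genes, 9 (6.34%) did not overlap in this direction, and 55.6% were higher by day, where 88.6% of the 44 ribosomal protein genes at that level were.

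Scaling and single arrays changed the size of this day side. After quantile normalization 34 of the 54 were higher by day, against 49.5% of all genes, with a median log2 difference of 0.03. In that setting 6 did not overlap, higher by day, against 5.88% of all genes, and 1 did not overlap, lower by day, against 5.42%. The 142 other bright genes then had a median of -0.04, with 40.8% higher by day. Without the 3 AM and 3 PM arrays, 7 AM and 11 AM are left against 7 PM and 11 PM, with closer hybridisation controls. On these, 47 of 54 were higher by day, against 48.2% of all genes. The median was 0.19, against -0.03 for the other bright genes. In those 4 animals 28 of the 54 did not overlap, higher by day, against 17.2% of all genes, and 3 did not overlap, lower by day, against 20.1%. On the same 4 arrays after quantile normalization, 41 of 54 were higher by day, against 48.8% of all genes, the median was 0.09, and that of the other bright genes was -0.10. There 21 did not overlap, higher by day, against 18.1% of all genes, and 3 did not overlap, lower by day, against 19.6%. With age as a covariate 45 of 54 were higher by day, against 50.7% of all genes, with a median of 0.16.

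**Figure D4:**
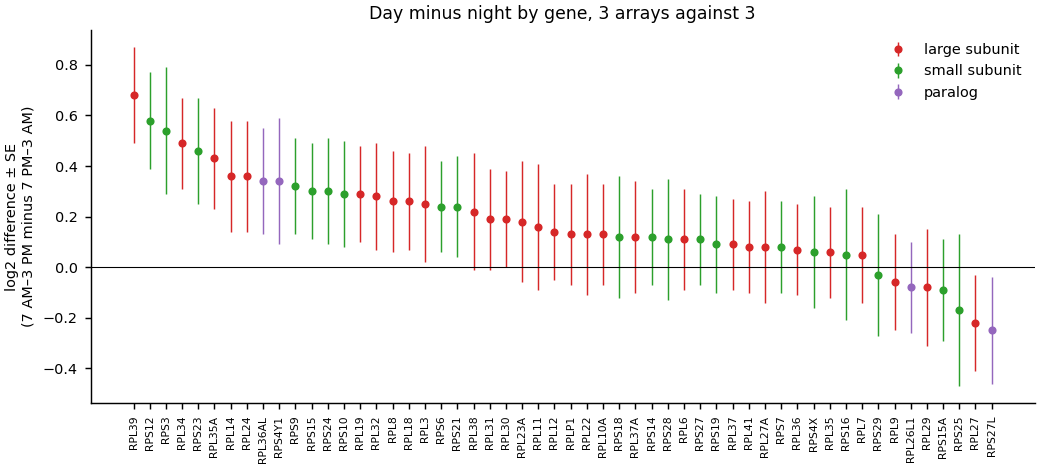
Day minus night difference on the log2 scale for each of the 54 genes, with its standard error from limma (3 arrays against 3), coloured by subunit. Of the 54 points, 46 lie above 0, from RPL39 at 0.68 down to RPS27L at -0.25, and no gene passed adjustment over all genes.

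On the night side lay 8 genes. The smallest p among them belonged to RPS27L, RPL27 and RPS25. RPS27L, a paralog of RPS27 that p53 induces, had 581, 401 and 515 by day, against 661, 555 and 556 by night, a log2 difference of -0.25 ± 0.21 (SE, limma adjusted p = 0.950). RPL27 had 10735, 9387 and 8656 by day, against 11389, 12019 and 9974 by night, a log2 difference of -0.22 ± 0.19 (SE, limma adjusted p = 0.950). Day and night values overlapped in both genes. RPS25 had a log2 difference of -0.17 ± 0.30 (SE, limma adjusted p = 0.975), which was 0.15 without the 3 AM array.

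Several genes hardly moved. The range from the lowest to the highest of the 6 animals had a median of 0.61 on the log2 scale over the 54 genes, against 0.76 over all genes tested. Only 2 of the 54, RPS3 and RPS25, spanned 1 or more on that scale, against 27.6% of all genes. Restricted to the 3804 genes with a mean log2 level of at least 8.63, the medians were 0.60 for 51 ribosomal protein genes and 0.68 for all. RPL35, which lies beside the exit tunnel, had 5521 at 3 AM, 6490 at 7 AM, 6016 at 11 AM, 5577 at 3 PM, 5704 at 7 PM and 6140 at 11 PM. RPS7, a protein of 40S assembly, ran from 4886 at 3 AM to 5845 at 7 AM, and RPL36 from 5323 at 3 AM to 6483 at 3 PM. All 3 were lowest at 3 AM, with ranges of 0.23, 0.26 and 0.28 on the log2 scale.

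The P stalk, which recruits and activates the elongation GTPases, is formed by RPLP0, RPLP1 and RPLP2. RPLP1 had 8229 at 3 AM, 9612 at 7 AM, 9114 at 11 AM, 6976 at 3 PM, 8228 at 7 PM and 6935 at 11 PM, with a log2 day minus night difference of 0.13 ± 0.20 (SE), or -0.03 after quantile normalization. The morning animals were highest, but 3 PM was nearly as low as 11 PM. RPLP2 was represented alone only by dim probe sets, with intensities from 21.8 to 208, and was not tested. RPLP0 and RPSA were not analysed here.

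Of 7 paralogs 4 passed the level filter. RPL36AL, the paralog of RPL36A, had 3161, 2407 and 2756 by day, against 2137, 2652 and 1835 by night (log2 0.34 ± 0.21, SE, limma adjusted p = 0.923). RPL26L1, the paralog of RPL26, stayed between 817 at 3 AM and 1032 at 11 PM. RPL3L of striated muscle and RPL10L and RPL39L of the testis lay below the level filter, with intensities of 25.0 to 80.0, 25.1 to 85.8 and 5.9 to 43.6. So did the pseudogenes RPL23AP32, RPL23AP53 and RPS2P45, at 78.6 to 180, 21.7 to 85.6 and 63.5 to 130. With RPLP2 these are the 7 genes left untested.

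RPS4 has an X-linked and a Y-linked copy in primates. RPS4X measured 11823 at 3 AM, 16649 at 7 AM, 17456 at 11 AM, 13816 at 3 PM, 18259 at 7 PM and 16563 at 11 PM. The probe set of RPS4Y1 measured 317 at 3 AM, 295 at 7 AM, 348 at 11 AM, 248 at 3 PM, 195 at 7 PM and 201 at 11 PM, above the level filter although every animal is labelled female. It was higher from 3 AM to 11 AM than in the evening pair, and it did not follow RPS4X, which was lowest at 3 AM. Of 6 other Y-linked genes measured, 2 reached the filter, UTY with 150 to 353 and KDM5D with 115 to 345, and the other 4 lay between 6.6 and 111. Binding of other transcripts to this probe set was not tested, and its values are not read as a level of RPS4Y1. The probe set is still counted among the 54 genes and among the 46 higher by day. Its fitted peak was 1.76 times its trough (limma adjusted p = 0.836).

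Probe sets of the same gene did not always agree. Of the 61 genes, 23 had more than 1 probe set naming them alone, 38 further probe sets in all, of which 15 were below the level filter. The 23 at or above it belonged to 18 genes. On these, 17 of 23 had the same sign of day minus night difference as the probe set used, 16 were higher by day, and 16 were higher at 7 AM than at 3 AM. Their median day minus night difference was 0.20 on the log2 scale. Named after their values were seen, the 3 bright probe sets of RPS10 had 0.29, 0.34 and 0.23, whereas those of RPS28 had 0.11 on the one used and -0.21 on another. RPS7, nearly level on the probe set used, ranged over 1.60 on the log2 scale on its second, from 1466 at 3 PM to 4452 at 7 AM.

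**Figure D5:**
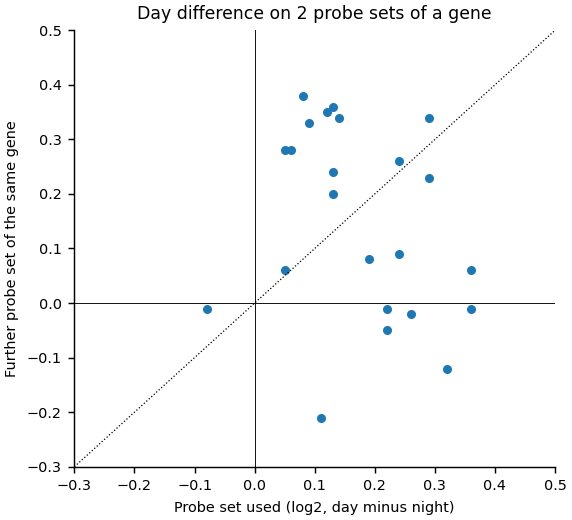
Day minus night difference (log2) of 23 further probe sets at or above the level filter against that of the probe set used for the same gene, 18 genes in all; the dotted line marks equal values. 17 of 23 points have the same sign on both axes.

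Many ribosomal protein genes host small nucleolar RNAs in their introns, and probe sets that name both were not used for any gene. There were 51 probe sets whose names are 1 or more ribosomal protein genes with only small nucleolar RNAs or microRNAs beside them, and 40 of these reached the level filter. Of the 40, 36 were higher at 7 AM than at 3 AM, against 46.4% of all genes tested, with a median log2 difference of 0.44. By day 35 were higher, against 49.1%, with a median of 0.17. None of the 40 had an unadjusted cosine p under 0.05 (0 of 40 by limma), against 5.56% of all genes. At that threshold 1 was higher by day, against 2.95%. These probe sets lay mostly higher at 7 AM and by day, but on the same animals, arrays and scaling as the genes above. They are therefore no separate check of that pattern. Their values after quantile normalization, which removed the 7 AM step in the tested ribosomal protein genes, are not given here.

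The rest of the translation machinery was read from lists of genes by role. FAU, a 40S protein made as a fusion and the 1 measured of 4 listed ribosomal protein genes with names outside the rule, had 4821, 4244 and 3772 by day, against 3604, 3442 and 3053 by night (log2 0.34 ± 0.19, SE, limma adjusted p = 0.896). Of 7 genes of elongation and related TOP messages 5 were higher by day, with a median log2 difference of 0.09. EEF1A1, which brings aminoacyl-tRNA to the ribosome, was lowest at 3 AM with 19224 and highest at 11 AM with 32739. EEF2, the translocation factor, ran the other way, with 5738 at 3 AM and 3847 at 7 AM. EIF5A, which helps ribosomes past stretches of proline, had a fitted ratio of 1.86 (limma adjusted p = 0.859). EEF1A2, a neuron and muscle form of EEF1A, had 956, 696 and 575 by day, against 402, 327 and 396 by night (log2 0.96 ± 0.23, SE, limma adjusted p = 0.759). Of 33 initiation factors 22 were higher by day, with a median of 0.07, and 2, EIF1B and EIF2B4, had an unadjusted p under 0.05, with log2 differences of 0.74 and 0.60 (limma adjusted p = 0.781 and 0.820).

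Genes that build ribosomes divided almost evenly. Of 33 tested genes of ribosome biogenesis, 17 were higher by day, with a median log2 difference of 0.01. Among them MPHOSPH10, a factor of 40S assembly, had 322 at 3 AM, 328 at 7 AM, 356 at 11 AM, 215 at 3 PM, 175 at 7 PM and 172 at 11 PM, a fitted ratio of 2.26 (limma adjusted p = 0.836). WDR43, also of 40S assembly, had a fitted ratio of 1.77 (limma adjusted p = 0.836). Of 7 tested genes of RNA polymerase I and its factors, 3 were higher by day, with a median of -0.03: the subunit genes POLR1C and POLR1E, at 0.20 and 0.00, and MYC, a transcription factor with many other targets, at 0.41. The smallest p there belonged to POLR1G and POLR1B, with fitted ratios of 2.82 and 1.31 (limma adjusted p = 0.862 and 0.913). Of 13 genes of TOR signalling 3 were higher by day, with a median of -0.13. RPS6KA1, listed here as an S6 kinase by name, had 299, 229 and 382 by day, against 532, 399 and 363 by night (limma adjusted p = 0.894). Its values are not read as a measure of TOR activity. DDIT4, an inhibitor of TOR that glucocorticoids and stress induce, was highest at 3 AM with 1775 and lowest at 3 PM with 1008, a fitted ratio of 1.67 (limma adjusted p = 0.836).

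Mitochondrial ribosomal proteins, made for the separate ribosome of mitochondria, lay on the other side. Of 41 tested, 11 were higher by day, with a median log2 difference of -0.11, and at 3 AM their median deviation was 0.08. MRPS16 had 179, 138 and 120 by day, against 204, 333 and 436 by night (log2 -1.10 ± 0.30, SE, limma adjusted p = 0.759), and MRPL35 had a fitted ratio of 4.69 (limma adjusted p = 0.836). The difference between the lists was not tested.

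Markers of the medulla, like the ribosomal protein genes, had their lowest median at 3 AM and their highest at 7 AM, but not at 3 PM the same level. There the median deviation was 0.34 for the medulla markers and -0.06 for the ribosomal protein genes. All 5 medulla markers were higher by day, with a median log2 difference of 0.92. Their summed intensity was 20950 to 34549 by day and 13569 to 20974 by night, lowest at 3 AM and highest at 7 AM. PNMT, which makes adrenaline, had a log2 difference of 1.10 and DBH, which makes noradrenaline, 0.92 (limma adjusted p = 0.759 and 0.809). The 7 cortex markers were all lower by day, with a median of -0.27, and summed to 59277 to 62941 by day and 54375 to 81868 by night. Among them CYP17A1 differed by -0.10 and the ACTH receptor MC2R by -1.08 (limma adjusted p = 0.978 and 0.934). The MC2R value was 23.6 at 11 AM and 161 to 350 on the other arrays, highest at 7 AM. Lymphocyte markers, 2 of 4 tested higher by day, summed to 1188 to 1456 by day and 1234 to 1433 by night. The sums of each list also take in its measured markers below the level filter. CD2 had a log2 difference of 0.84 and CD3D 0.45 (limma adjusted p = 0.766 and 0.894). CD79A and MS4A1 went the other way, at -0.40 and -0.10 (limma adjusted p = 0.900 and 0.982). Macrophage markers, 1 of 2 higher, summed to 837 to 1052 by day and 648 to 990 by night, and endothelial markers, 1 of 3 higher, to 1015 to 1340 by day and 941 to 1996 by night. CD163 and CSF1R differed by 0.73 and -0.08, and PECAM1 and CDH5 by 0.28 and -0.13, on the log2 scale. Smooth muscle markers, 1 of 4 higher, summed to 3538 to 4923 by day and 2759 to 7448 by night, with TAGLN at -0.18 and CNN1 at 0.68. CNN1 was 20.4 at 11 PM and 150 to 342 on the other arrays. Adipocyte markers, 0 of 2 higher, summed to 1269 to 2111 by day and 1966 to 3699 by night, with FABP4 at -0.93 and LPL at -1.04 (limma adjusted p = 0.766 for each). The 1 tested red blood cell gene, HBB, had a log2 difference of -0.02. The part of the medulla share or of other cells in the ribosomal protein values was not tested, and in whole glands fewer cells of a type and less RNA per cell cannot be told apart.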

How the data were processed

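Total RNA of 6 adrenal glands, 1 per clock time, was labelled from an oligo-dT primer and hybridised to human Affymetrix arrays, per the labels' protocols. Each deposited value is a linear intensity of a probe set on an array, from 0.1 to 40394; the trimmed means of the arrays, with 2% left out at each end, lie between 325.04 and 325.09, so they had been scaled. The sources used here do not name the summary software. Of 22283 probe sets, 68 are controls, 19065 name 1 gene in the platform annotation, 1043 several and 2107 none.

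Values were converted to log2(value + 1), and fold changes are on that scale. Each gene took the single-gene probe set with the highest mean, and genes with a mean of at least 7.30 were tested. A cosine of 24 h and the day minus night contrast were fitted to all 7164 genes with limma 3.58.1 in R 4.3.3, with Benjamini-Hochberg adjustment over all of them and a threshold of 0.05; tables were made in Python 3.11.15. Both fits were first tested on simulated data holding known curves and differences. The number of arrays limits the precision.

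The genes and lists were chosen with earlier results of these data known. Genes were named by rule: the 6 of lowest p in the cosine fit, the 3 of lowest p on each side of the contrast, the 3 widest and 3 narrowest ranges, all genes below the filter, the paralogs, the P stalk, RPSA, RPS3, RPS6 and the 2 of lowest cosine p in each other list; others were named after their values were seen. Alternatives covered the level filter, scaling, pseudocount, probe set choice, prior, the ordinary test, age and arrays left out.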

Additional observations from a re-analysis of the deposited data

How the results depend on the processing

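No ribosomal protein gene passed adjustment over all genes in either test under any alternative run (0 of those tested by limma). The count with unadjusted cosine p under 0.05, 0 of 54 as reported, was 1 with no level filter, 2 with a stricter one, 1 with quantile normalization, 2 with centring on the median, 1 with the mean of all probe sets, 1 with plain probe sets preferred, 2 with a trend and robust prior, 3 with the ordinary test and 1 with age as a covariate. The count that also had a fitted ratio of at least 1.5 was the same in each of these except the ordinary test, where it was 1. The count higher by day with unadjusted p under 0.05, 3 as reported, was 5 with no filter, 5 with a stricter one, 6 with the trend and robust prior, 6 with the ordinary test and 5 without the 3 AM and 3 PM arrays. For counts by unadjusted p, the share of all genes under each alternative is not given here, including those with 1 array left out. These counts are therefore not read as above or below that share. The count of genes whose day and night values did not overlap, 10 as reported, was 6 with quantile normalization (5.88% of all genes), 4 with centring (4.19%), 28 without the 3 AM and 3 PM arrays (17.2%) and 21 with both those arrays left out and quantile normalization (18.1%), an alternative added after seeing the data, as were this count and that of genes higher at 7 AM than at 3 AM. The last was 50 as reported and 22 with quantile normalization (48.2% of all genes). The median peak-to-trough difference was 1.20 with age as a covariate, against 0.33 as reported, and the median range was 0.39 without the 3 AM and 3 PM arrays and 0.37 with quantile normalization as well, where fewer arrays enter the range. The causes of the other changes were not tested.
Leaving out 1 array at a time gave 0 to 2 genes with unadjusted cosine p under 0.05, 0 to 2 with the fitted ratio as well, 2 to 5 higher by day with unadjusted p under 0.05, 40 to 49 higher by day (47.5% to 52.6% of all genes), 10 to 26 not overlapping (9.69% to 11.5% of all genes), and medians of 0.11 to 0.26 for the day minus night difference, 0.34 to 0.47 for the peak-to-trough difference and 0.50 to 0.61 for the range. Among the named genes' alternatives, 624 kept their direction and their side of the unadjusted threshold, 27 went past it, 9 no longer passed it and 16 turned the sign of a day minus night difference, 0 of them with p under 0.05 by limma before or after. With quantile normalization RPL35 was at -0.02, RPL36 at -0.01, RPLP1 at -0.03 and RPS4X at -0.11. With the mean of all probe sets, 1 of them dim at a mean intensity of 28.7, RPS6 was at -0.15. Without the 3 AM and 3 PM arrays RPL36 was at -0.03, RPS25 at 0.31 and RPS4X at -0.03, and with quantile normalization as well at -0.10, 0.27 and -0.14 in the same order. With 1 array left out at a time, RPS25 ran between -0.41 and 0.15, RPS4X between -0.13 and 0.18, RPL11 between -0.09 and 0.30 and RPL26L1 between -0.16 and 0.01, with the sign turned without 3 AM for RPS25, without 3 AM or 11 AM for RPS4X, without 7 PM for RPL11 and without 11 PM for RPL26L1. No paired analysis was possible because no animal was sampled at more than 1 clock time. With 1 animal per clock time, clock time cannot be told apart from the animal, and age falls along most of the clock.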
